A study of Mus musculus with 29 samples.

Results

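The genes described here are 39 members of hepatic fatty acid oxidation and of the target genes of PPARA, taken from a list of gene symbols out of the 22187 gene IDs in the deposited table. All 39 were found by symbol. They comprise 4 regulators or hormones, 3 members of the carnitine shuttle, 11 enzymes of mitochondrial beta-oxidation, 3 electron transfer proteins, 10 peroxisomal genes, 5 acyl-CoA thioesterases and 3 genes of ketone and fuel choice. RNA was sequenced from liver tumours and from non-tumour liver of C57BL/6 mice that had all received diethylnitrosamine (DEN), a liver carcinogen, at 25 mg/kg by intraperitoneal injection at 2 weeks of age and were then fed for 18 weeks. No animals without DEN are among the 29 libraries. The tumour groups were alcohol IL17RA-/- with 4 libraries, alcohol WT with 3, HFD IL17RA-/- with 3 and HFD WT with 3. The non-tumour groups were alcohol IL17RA-/- with 5 libraries, alcohol WT with 5, HFD IL17RA-/- with 3 and HFD WT with 3. Alcohol stands here for the sample label HFD_alcohol. The series text instead describes liquid ethanol feeding against pair-feeding, and the sample labels were used for the groups. IL17RA is the receptor subunit through which interleukin 17A signals. Neither the deleted part of the gene nor the cells that lack it are given in the labels, nor is whether tumour and non-tumour libraries came from the same animals or how many animals a library held, so a p-value here is about the spread among libraries, which may be technical.

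Fatty acid oxidation shortens fatty acids by cycles that each release acetyl-CoA. Long-chain acyl groups enter the mitochondrion through the carnitine shuttle, while peroxisomes handle very long-chain and branched acids and the side chain of bile acids. PPARA is a nuclear receptor that fatty acids activate in fasting; as a heterodimer with RXR it binds pairs of AGGTCA-like half-sites with a 1-base spacer, and in mouse liver it drives many genes of both organelles, of acyl-CoA thioesterases and of the hormone FGF21. The liver is the main site of the ketone bodies made from the acetyl-CoA.

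Values are CPM, read counts scaled to a common total in every library, with 3213696 to 9660584 counts per library, so that 3 counts stood for 0.311 to 0.934 CPM. Differences are on the scale log2(CPM + 1), with their standard error (SE) from limma, and a gene was called at a Benjamini-Hochberg adjusted p under 0.05. At 1 CPM or more in all 29 libraries were 38 of the 39 members, the exception being Acot3. Hepatocyte markers were high in every library, with a sum over 9 genes of 107500 to 228100 CPM in tumours and 75950 to 116600 CPM in non-tumour liver. A sum over 7 liver tumour markers ran from 306.5 to 1134 CPM in tumours and from 9.21 to 491 CPM in non-tumour liver, and these ranges overlapped. Il17ra itself did not pass the test in any comparison of the genotype labels. In tumours it averaged 50.4 ± 6.33 CPM (SD, n = 4) in alcohol IL17RA-/- against 33.2 ± 0.753 CPM (n = 3) in alcohol WT, and 59.4 ± 4.45 CPM in HFD IL17RA-/- against 32.8 ± 13.8 CPM in HFD WT (n = 3 each). In non-tumour liver it averaged 26.1 ± 8.39 CPM in alcohol IL17RA-/- against 27.5 ± 10.2 CPM in alcohol WT (n = 5 each), and 24.5 ± 10.3 CPM in HFD IL17RA-/- against 26.3 ± 1.02 CPM in HFD WT (n = 3 each). Genotype is therefore used as a label only, and a direction between genotypes is a direction between labels.

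In tumours, most genes of fatty acid oxidation were lower than in non-tumour liver. Averaged over the 4 combinations of diet and genotype label, 31 of the 39 members fell, 3 rose and 5 were not called. Of all 13586 genes tested in this comparison 63.6% were called, 27% lower and 36.6% higher. The median difference of the members was -1.10 on the log2 scale, beside 0.09 for all genes tested. The peroxisomal genes had the lowest median of the 7 roles, whereas Cpt1a, the entry enzyme of the mitochondrial route, averaged a difference of 0.01. In bulk tissue, fewer cells of a type and less RNA per cell cannot be told apart.

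**Figure D1:**
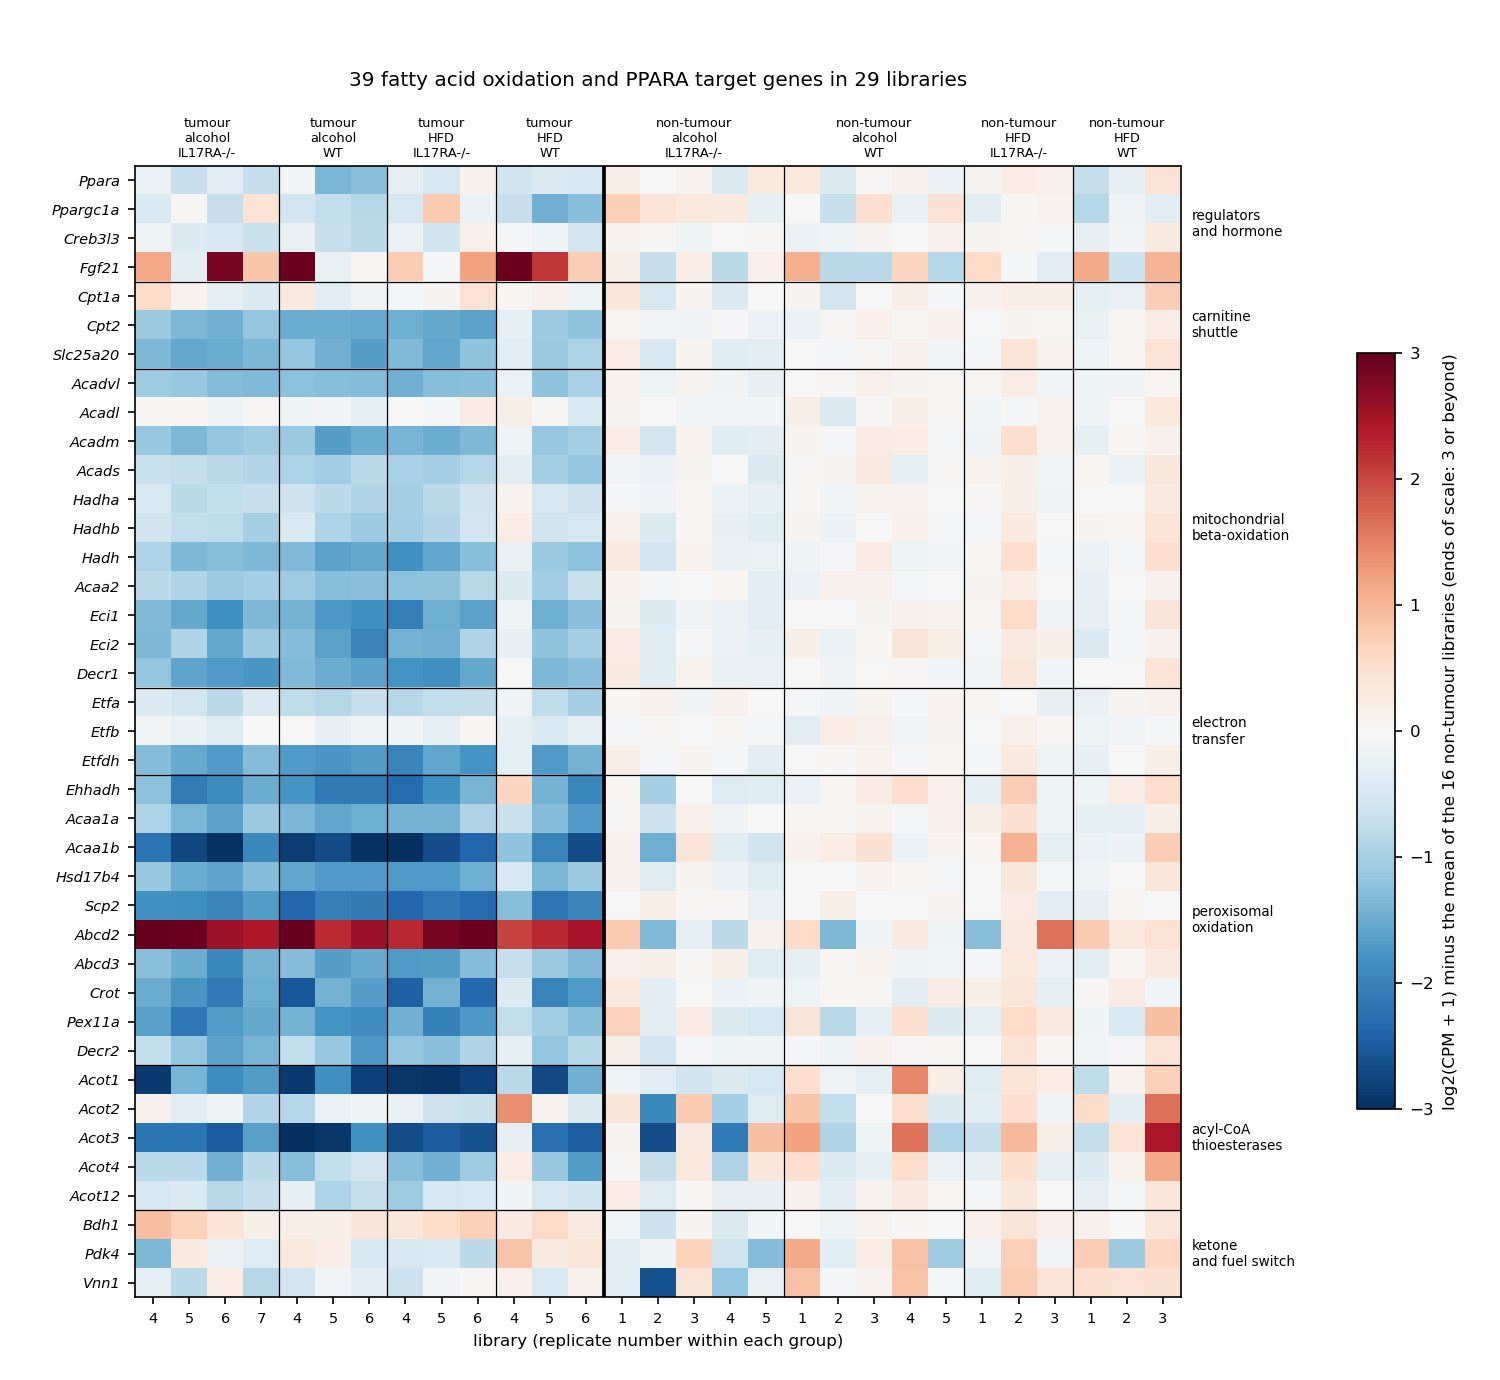
Level of each of the 39 genes (rows, grouped by role) in each of the 29 libraries (columns, tumour groups left of non-tumour groups), as log2(CPM + 1) minus that gene's mean over the 16 non-tumour libraries, with the colour scale ending at 3. Most rows are below that mean (blue) across the 13 tumour columns, Abcd2 is above it (red) in every tumour, and replicate 4 of the HFD WT tumours is the highest tumour for 30 genes.

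**Figure D2:**
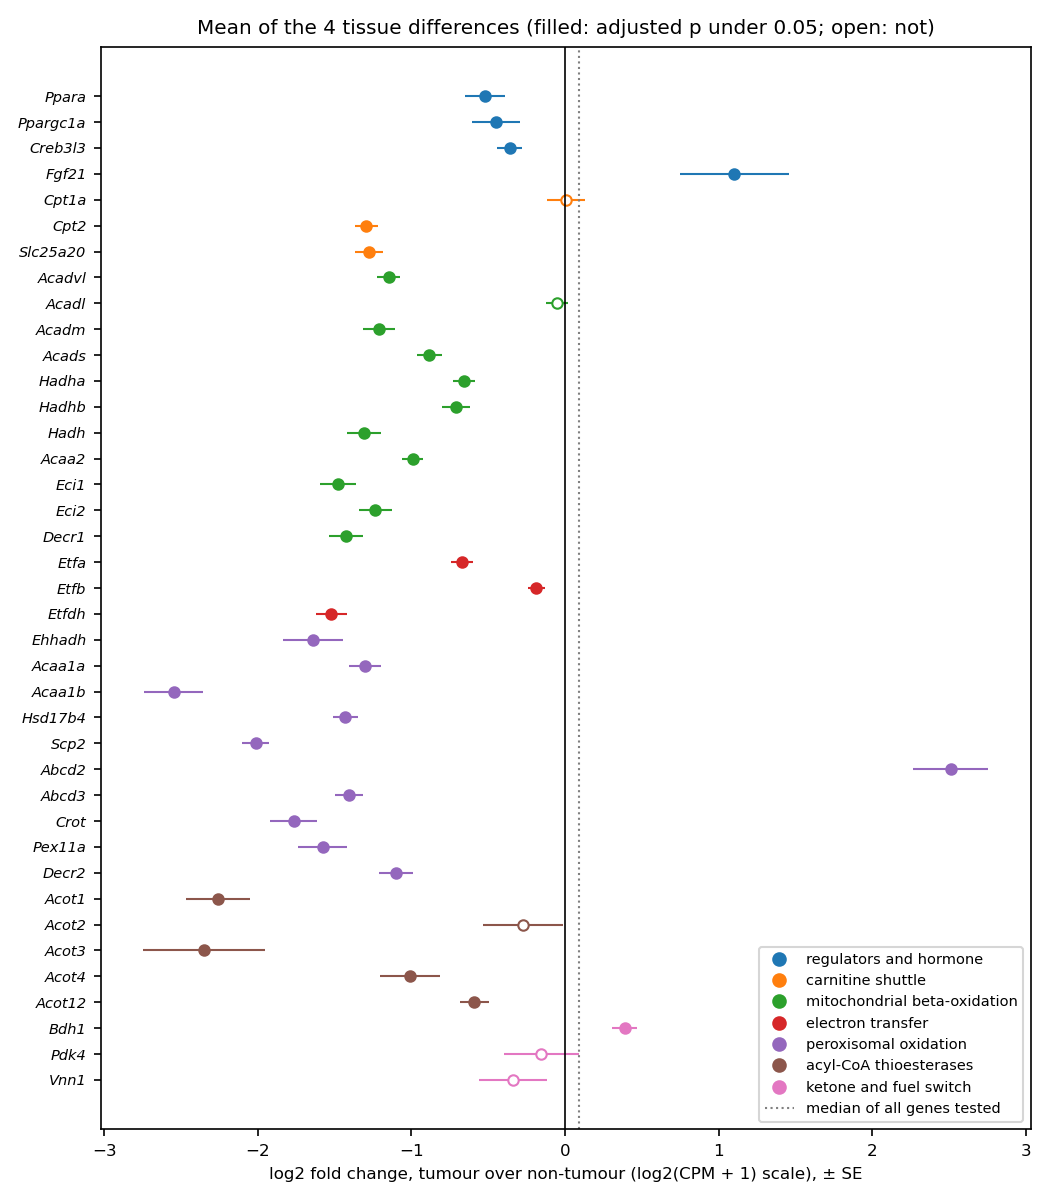
Tumour minus non-tumour difference on the log2(CPM + 1) scale for each gene, averaged over the 4 combinations of diet and genotype label, with bars of 1 SE from limma, filled points for called genes and colours for the 7 roles. The dotted line at 0.09 is the median of all genes tested. The differences run from -2.55 for Acaa1b to 2.51 for Abcd2, and 31 genes were called lower and 3 higher.

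Among the regulators, Ppara, the nuclear receptor itself, was lower in tumours. It ranged from 85.5 to 243 CPM with a median of 158 CPM over the 13 tumour libraries, and from 135 to 300.1 CPM with a median of 239 CPM over the 16 non-tumour libraries. The ranges overlapped widely, and the lowest levels were those of alcohol WT tumour replicates 5 and 6, at 85.5 and 93.3 CPM. The difference was -0.52 ± 0.13 (SE, limma adjusted p = 0.00115). In the 4 separate comparisons of tissues Ppara was called in alcohol WT alone (-0.88 ± 0.25, limma adjusted p = 0.00738). Creb3l3, a liver transcription factor that works with PPARA in fasting, was lower by a smaller amount (-0.36), as was Ppargc1a (-0.45), the coactivator of mitochondrial gene expression.

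Fgf21, the fasting hormone that PPARA induces, rose. It ranged from 1.94 to 27.5 CPM with a median of 5.60 CPM in tumours, and from 1.05 to 7.14 CPM with a median of 2.84 CPM in non-tumour liver. Of the 13 tumours 7 lay inside the non-tumour range, and 3 stood above 25 CPM, namely alcohol IL17RA-/- replicate 6, alcohol WT replicate 4 and HFD WT replicate 4 at 25.8, 27.2 and 27.5 CPM. The difference was 1.10 ± 0.36 (limma adjusted p = 0.00942), and Fgf21 was called in none of the 4 separate comparisons.

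The carnitine shuttle divided. Cpt1a, the outer-membrane transferase whose inhibition by malonyl-CoA sets the rate of entry, ranged from 454 to 919.5 CPM with a median of 644 CPM in tumours, and from 422 to 1030 CPM with a median of 636 CPM in non-tumour liver. The 2 ranges covered each other almost wholly. Its difference was 0.01 ± 0.12 (limma adjusted p = 0.968). Cpt2, the inner-membrane transferase that returns the acyl group to CoA, ranged from 45.4 to 115 CPM with a median of 51.0 CPM in tumours, and from 119 to 162 CPM with a median of 143 CPM in non-tumour liver. No tumour reached the lowest non-tumour library. The difference was -1.29 ± 0.08 (limma adjusted p = 7.13e-13). Slc25a20, the carrier that exchanges acylcarnitine for carnitine across the inner membrane, ranged from 39.2 to 101 CPM in tumours and from 89.3 to 171 CPM in non-tumour liver. One tumour, HFD WT replicate 4, lay above the lowest non-tumour libraries, and the difference was -1.28. The difference between Cpt1a and the other two was not tested.

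The promoters of these 3 genes are shown because the same shuttle holds a gene that was not called and 2 that fell. They and the other promoters are 300 bases from RefSeq on GRCm38.p6, 250 bases before to 50 bases after the start of transcription, read 5′ to 3′ on the gene's strand. Cpt1a lies at chr19:3323051-3323350 on the plus strand, Cpt2 at chr4:107923540-107923839 on the minus strand and Slc25a20 at chr9:108661886-108662185 on the plus strand. Capitals mark a match to DR1, the direct repeat that PPARA-RXR binds (AGGTCA, any 1 base, then AGGTCA again), with at most 2 mismatches on either strand.
Cpt1a: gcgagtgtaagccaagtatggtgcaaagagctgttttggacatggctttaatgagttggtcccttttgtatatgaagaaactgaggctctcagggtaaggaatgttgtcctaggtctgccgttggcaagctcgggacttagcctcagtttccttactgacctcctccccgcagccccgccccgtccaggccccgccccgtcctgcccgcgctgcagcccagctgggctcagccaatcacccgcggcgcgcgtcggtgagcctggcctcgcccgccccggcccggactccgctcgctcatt
Cpt2: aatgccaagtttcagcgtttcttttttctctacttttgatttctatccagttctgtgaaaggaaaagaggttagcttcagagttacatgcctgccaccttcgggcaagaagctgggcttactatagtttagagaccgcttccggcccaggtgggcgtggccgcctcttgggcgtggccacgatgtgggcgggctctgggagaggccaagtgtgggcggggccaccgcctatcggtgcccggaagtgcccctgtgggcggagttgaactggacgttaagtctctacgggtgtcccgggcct
Slc25a20: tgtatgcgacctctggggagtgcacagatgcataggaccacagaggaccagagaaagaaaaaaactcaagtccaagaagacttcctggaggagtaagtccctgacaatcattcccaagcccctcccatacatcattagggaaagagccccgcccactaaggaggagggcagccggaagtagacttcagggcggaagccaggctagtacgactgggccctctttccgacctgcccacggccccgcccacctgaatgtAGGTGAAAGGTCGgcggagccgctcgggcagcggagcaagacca
The only match of the 3 windows is in Slc25a20, with 2 mismatches, 6 bases after the start. No match says only that these letters are not in this window.

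In mitochondrial beta-oxidation, 10 of 11 enzymes were called lower and none was called higher. The first step has an acyl-CoA dehydrogenase for each chain length. Acadvl, for very long chains, ranged from 148 to 349.7 CPM with a median of 169 CPM in tumours, and from 340 to 471 CPM with a median of 413 CPM in non-tumour liver, and differed by -1.15 with 1 tumour, HFD WT replicate 4, reaching the lowest non-tumour library. Acadm, for medium chains, differed by -1.21, and Acads, for short chains, by -0.88. Acadl, for long chains, ranged from 108 to 175 CPM with a median of 150.2 CPM in tumours, and from 110.1 to 184 CPM with a median of 147 CPM in non-tumour liver. It was the 1 enzyme of this step with coinciding ranges, at -0.05 ± 0.07 (limma adjusted p = 0.52).

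Eci1, the isomerase needed for unsaturated fatty acids, ranged from 25.5 to 102 CPM with a median of 39.4 CPM in tumours, and from 83.0 to 165 CPM with a median of 109.9 CPM in non-tumour liver. Its difference was -1.48 ± 0.12 (limma adjusted p = 6.82e-11). Decr1, the dienoyl-CoA reductase of the same branch, ranged from 59.2 to 213 CPM with a median of 73.6 CPM in tumours, and from 166.5 to 287 CPM with a median of 212 CPM in non-tumour liver. Its difference was -1.43 ± 0.11 (limma adjusted p = 5.79e-11). For both genes the 1 tumour that reached into the non-tumour range was HFD WT replicate 4. Hadh, the short-chain hydroxyacyl-CoA dehydrogenase, differed by -1.31, Eci2, another isomerase, by -1.24, and Acaa2, the closing thiolase, by -0.99 with no overlap between the tissues. Hadha and Hadhb, the subunits of the trifunctional protein of long chains, differed by -0.66 and -0.71. These 2 genes are neighbours on chromosome 5, 85 bases apart.

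The electron transfer proteins pass the electrons of the first step to the respiratory chain. Etfdh, the membrane oxidoreductase, ranged from 80.1 to 259 CPM with a median of 99.99 CPM in tumours, and from 252 to 392 CPM with a median of 318 CPM in non-tumour liver. One tumour, again HFD WT replicate 4, lay inside the non-tumour range. Its difference was -1.52 ± 0.10 (limma adjusted p = 6.3e-12). Etfa and Etfb, the subunits of the flavoprotein that Etfdh accepts electrons from, differed by -0.67 and -0.19, and both were called.

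Of the 10 peroxisomal genes 9 fell and 1 rose, with a median of -1.50. Scp2 encodes, from 1 gene, a peroxisomal thiolase of branched chains and a sterol carrier protein. It ranged from 991 to 2093 CPM with a median of 1221 CPM in tumours, and from 4015 to 6025 CPM with a median of 5134 CPM in non-tumour liver. The lowest non-tumour library stood well above the highest tumour. The difference was -2.01 ± 0.09, with the lowest limma adjusted p of all 13586 genes (1.36e-14).

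Acaa1b and Acaa1a, 2 peroxisomal thiolases 182.6 kb apart on chromosome 9, were both lower. Acaa1b ranged from 164 to 702 CPM with a median of 253.5 CPM in tumours, and from 588 to 3338 CPM with a median of 1704 CPM in non-tumour liver. The overlap came from 1 tumour (HFD WT replicate 4, 702 CPM) and 1 non-tumour library (alcohol IL17RA-/- replicate 2, 588 CPM). On the log2(CPM + 1) scale Acaa1b had the largest fall of the 39 genes, -2.55 ± 0.19 (limma adjusted p = 3e-11). Acaa1a differed by -1.30. By the ratio of the non-tumour to the tumour median in CPM, the thioesterases Acot3 and Acot1 fell further than Acaa1b. Fractional counts were given to Acaa1b in 28 and to Acaa1a in 29 of 29 libraries, and likewise to Scp2, Eci2 and Hadhb in 29 and to Acadvl in 28, so the share of reads that these genes took from similar sequences is uncertain.

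Ehhadh, the peroxisomal bifunctional enzyme of straight chains, ranged from 75.1 to 591 CPM with a median of 106 CPM in tumours, and from 190.3 to 629.9 CPM with a median of 385 CPM in non-tumour liver. HFD WT replicate 4 held the 591 CPM, and the next tumour had 161 CPM, below every non-tumour library. The difference was -1.64 ± 0.20 (limma adjusted p = 7.96e-08). Hsd17b4, the bifunctional enzyme of branched chains and bile acid precursors, ranged from 183 to 426 CPM with a median of 212 CPM in tumours, and from 461 to 771 CPM with a median of 603 CPM in non-tumour liver. Its groups did not overlap, and it differed by -1.43 ± 0.08 (limma adjusted p = 7.41e-13).

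Crot, which hands shortened acyl groups to carnitine for export to mitochondria, ranged from 171 to 745 CPM with a median of 306 CPM in tumours, and from 785 to 1275 CPM with a median of 1013 CPM in non-tumour liver. It did not overlap, and differed by -1.77 ± 0.15 (limma adjusted p = 2.93e-10). Pex11a, a factor of peroxisome proliferation, ranged from 16.9 to 46.9 CPM with a median of 24.7 CPM in tumours, and from 44.0 to 148.5 CPM with a median of 68.6 CPM in non-tumour liver. It differed by -1.58 ± 0.16 (limma adjusted p = 6.41e-09), with 1 tumour inside the non-tumour range. Decr2, the peroxisomal dienoyl-CoA reductase, differed by -1.10.

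The peroxisomal membrane transporters moved in opposite directions. Abcd3, which imports branched acids and bile acid precursors, ranged from 181 to 426 CPM with a median of 259.5 CPM in tumours, and from 537 to 867 CPM with a median of 710.5 CPM in non-tumour liver, a difference of -1.41 ± 0.09. Abcd2, a transporter of very long-chain and polyunsaturated acyl-CoA, ranged from 104 to 249.8 CPM with a median of 151 CPM in tumours, and from 9.19 to 79.2 CPM with a median of 28.77 CPM in non-tumour liver. Neither gene's groups overlapped, and Abcd2 was the 1 member with every tumour above every non-tumour library. Its difference was 2.51 ± 0.25 (limma adjusted p = 2.86e-09).

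**Figure D3:**
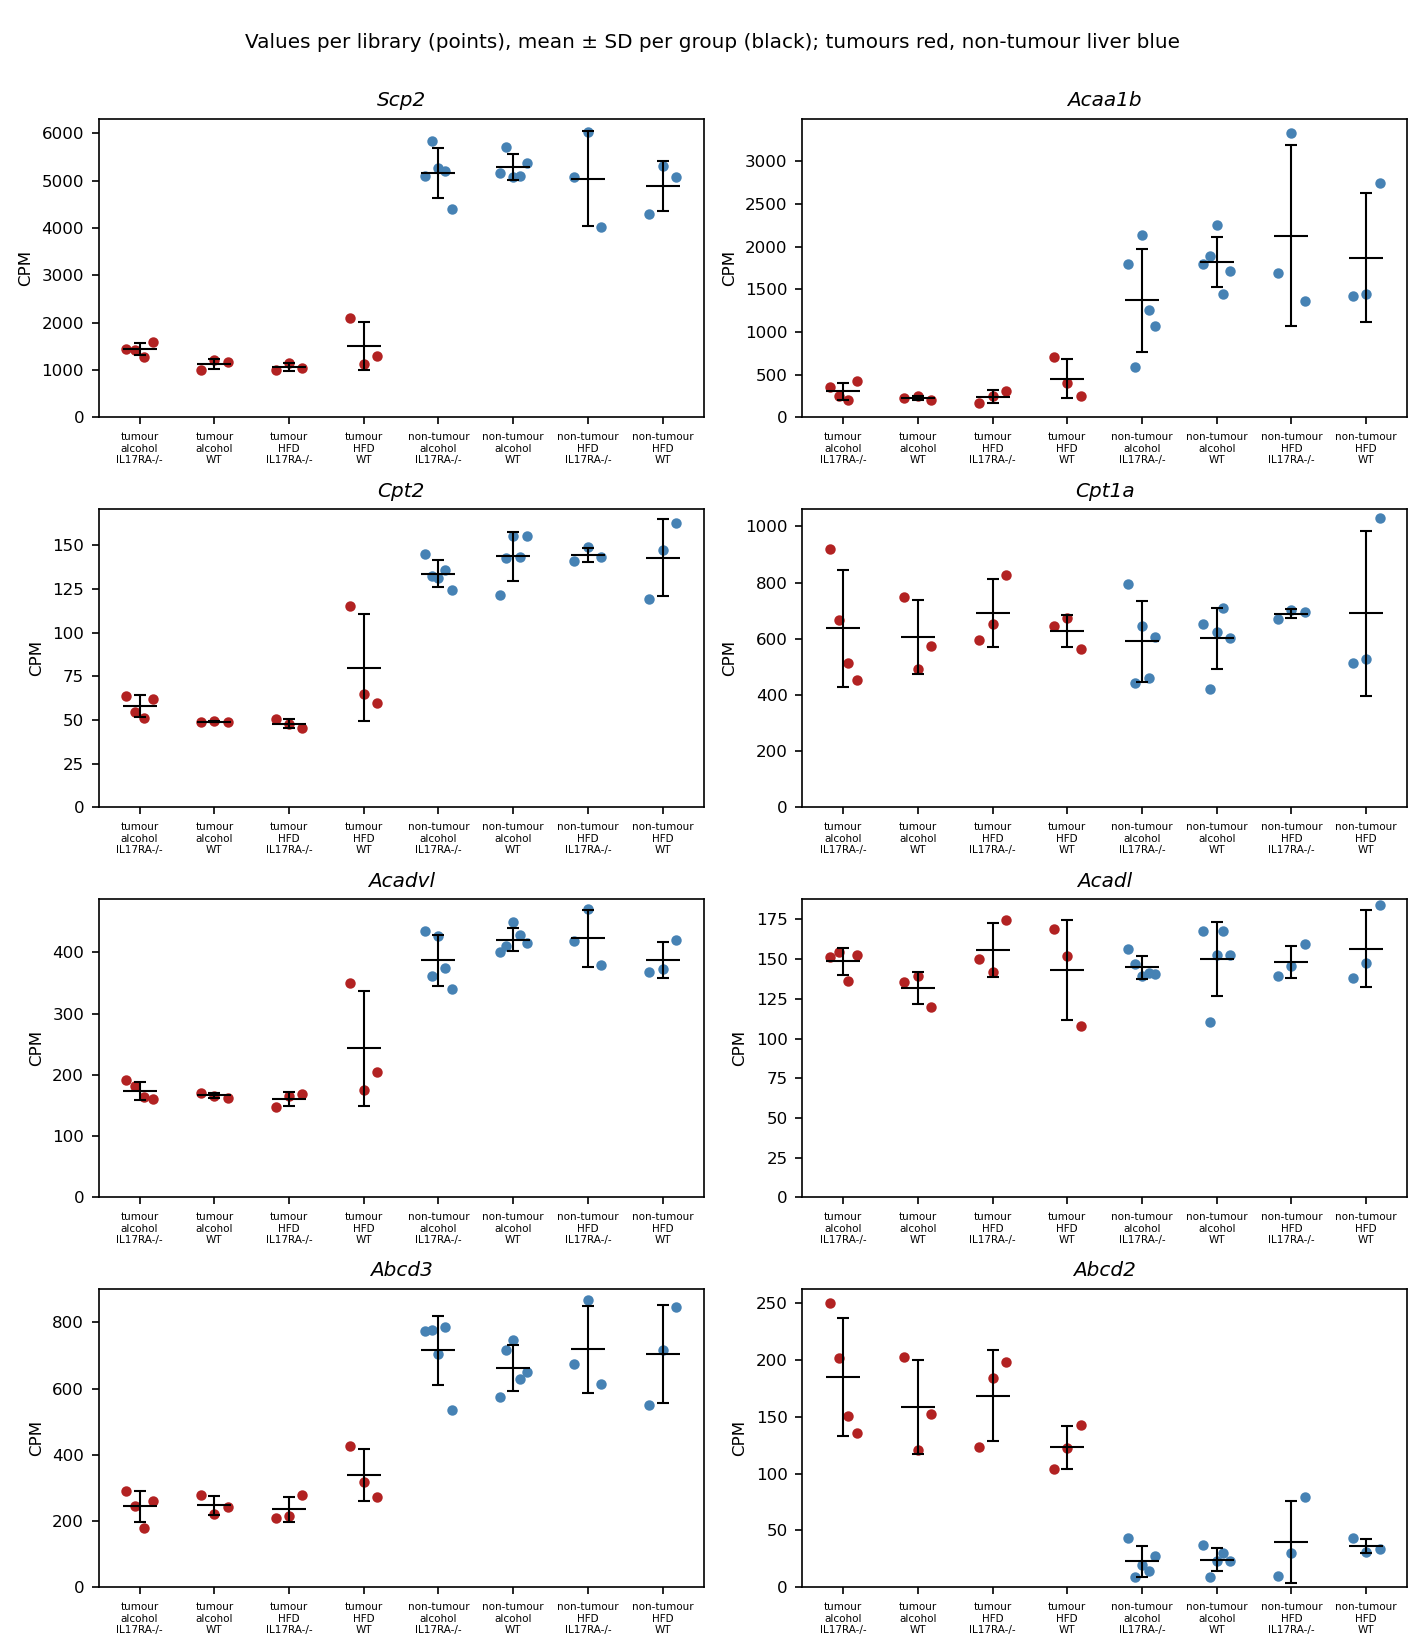
CPM of 8 named genes (one panel each, linear axis from 0) in every library, in the 8 groups with tumour groups left of non-tumour groups, each point 1 library and the black bars the group mean ± SD. In Scp2, Cpt2 and Abcd3 every tumour lies below every non-tumour library, in Abcd2 every tumour lies above, Acaa1b and Acadvl overlap through HFD WT tumour replicate 4, and Cpt1a and Acadl span like ranges in both tissues.

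The acyl-CoA thioesterases release free fatty acid from CoA. Acot1 (cytosolic), Acot2 (mitochondrial), and Acot3 and Acot4 (peroxisomal) lie within 72.5 kb of chromosome 12. Acot1 ranged from 2.81 to 15.8 CPM with a median of 3.49 CPM in tumours, and from 16.3 to 78.5 CPM with a median of 25.5 CPM in non-tumour liver. Its groups did not overlap, although the highest tumour and the lowest non-tumour library, both HFD WT, were close. The difference was -2.26 ± 0.21 (limma adjusted p = 1.11e-09).

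Acot3 was low in tumours, with 0 to 7.34 CPM and a median of 0.763 CPM, against 0.562 to 52.5 CPM and a median of 9.94 CPM in non-tumour liver. The library listed at 0, alcohol WT tumour replicate 4, had a 3-count limit of 0.406 CPM. Replicate 5 of that group, at 0.309 CPM, also lay under its limit of 0.464 CPM. The difference was -2.35 ± 0.40 (limma adjusted p = 1.43e-05). Acot4 differed by -1.01. Acot2 ranged from 5.92 to 32.2 CPM in tumours and from 2.29 to 38.5 CPM in non-tumour liver, so that its ranges coincided, at -0.27 ± 0.26 (limma adjusted p = 0.368). Acot12, an acetyl-CoA hydrolase of the liver on chromosome 13, differed by -0.59. The authors' counting gave Acot1 and Acot2 fractional counts in 29 of 29 libraries, Acot3 in 16, Acot12 in 9 and Acot4 in 5, so reads were shared between similar genes and the split between these paralogs is uncertain.

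The promoters of 4 thioesterase genes are shown. Acot1, Acot2 and Acot4 are neighbours that differed in their tissue difference, and Acot12, on another chromosome, holds the best match to the PPARA-RXR motif. The promoters of Acot3, not shown, hold no match within 2 mismatches. Acot1 lies at chr12:84009252-84009551, Acot2 at chr12:83987611-83987910, Acot4 at chr12:84038129-84038428 and Acot12 at chr13:91741271-91741570, all on the plus strand, with capitals as above.
Acot1: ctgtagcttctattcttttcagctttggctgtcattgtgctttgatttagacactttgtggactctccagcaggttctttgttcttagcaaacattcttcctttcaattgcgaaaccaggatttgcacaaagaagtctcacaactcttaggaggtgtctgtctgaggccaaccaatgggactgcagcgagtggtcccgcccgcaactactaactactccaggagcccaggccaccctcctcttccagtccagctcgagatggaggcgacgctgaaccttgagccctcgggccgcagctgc
Acot2: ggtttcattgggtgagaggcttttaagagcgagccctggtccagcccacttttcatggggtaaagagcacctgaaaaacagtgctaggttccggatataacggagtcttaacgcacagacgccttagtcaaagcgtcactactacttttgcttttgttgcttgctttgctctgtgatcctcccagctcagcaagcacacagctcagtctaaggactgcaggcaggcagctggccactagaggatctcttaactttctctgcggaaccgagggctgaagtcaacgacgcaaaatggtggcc
Acot4: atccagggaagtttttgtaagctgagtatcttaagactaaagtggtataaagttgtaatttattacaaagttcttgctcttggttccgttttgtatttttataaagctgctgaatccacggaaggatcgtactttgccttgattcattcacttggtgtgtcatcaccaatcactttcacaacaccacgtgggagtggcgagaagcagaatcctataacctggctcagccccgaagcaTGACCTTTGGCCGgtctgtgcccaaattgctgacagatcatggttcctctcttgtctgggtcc
Acot12: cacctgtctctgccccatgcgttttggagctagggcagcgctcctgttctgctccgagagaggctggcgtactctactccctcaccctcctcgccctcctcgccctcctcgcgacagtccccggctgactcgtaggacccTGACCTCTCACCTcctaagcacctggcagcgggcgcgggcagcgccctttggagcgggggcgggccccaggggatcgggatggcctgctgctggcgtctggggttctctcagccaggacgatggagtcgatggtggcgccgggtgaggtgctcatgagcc
Acot12 holds a match with 1 mismatch 110 bases before its start, and Acot4 one with 2 mismatches 13 bases before, both on the minus strand. Among the 34 members with a promoter in the table, with 38 promoters, 5 promoters held a match: those of Slc25a20, Acot4 and Acot12, one of Creb3l3 (209 bases before the start) and that of Etfa (77 bases before). That is 13.2% of the members' promoters, beside 3.86% of all 32851. The half-site AGGTCA alone, which overlaps the longer motif, was in 9 promoters, 23.7% beside 16.3% of all. A match is a description of the letters, and binding was not measured.

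The 3 genes of ketone and fuel choice showed no common direction. Bdh1, the dehydrogenase that makes beta-hydroxybutyrate, ranged from 268 to 446 CPM with a median of 312 CPM in tumours, and from 152 to 314 CPM with a median of 242 CPM in non-tumour liver. The tumours lay in the upper part of the joint range with overlap, and the gene was called higher at 0.39 ± 0.08 (limma adjusted p = 0.000173). Pdk4, the kinase that turns off pyruvate dehydrogenase in fasting, ranged from 4.11 to 22.6 CPM in tumours and from 4.31 to 27.9 CPM in non-tumour liver, at -0.15 ± 0.24. Vnn1, a pantetheinase and PPARA target, ranged from 53.5 to 116 CPM in tumours and from 15.3 to 183 CPM in non-tumour liver, and was not called at -0.34 ± 0.22 (limma adjusted p = 0.188). Without 1 non-tumour library, alcohol IL17RA-/- replicate 2 with the 15.3 CPM, Vnn1 was called lower at -0.45 (limma adjusted p = 0.0195).

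Taken by diet and genotype label, each of the 4 comparisons of tumour with non-tumour had most members called lower. In alcohol IL17RA-/- 26 members were called lower and 2 higher, where 39.9% of all genes were called, 18.1% lower. In alcohol WT 28 were called lower and 1 higher, where 35.7% of all genes were called, 19.2% lower. In HFD IL17RA-/- 27 were called lower and 1 higher, where 40.4% of all genes were called, 16.5% lower. In HFD WT 22 were called lower and 1 higher, where 15.3% of all genes were called, 7.61% lower and 7.64% higher. The members' median differences were -1.0, -1.21, -1.24 and -0.74 in the same order, beside 0.08, 0.01, 0.15 and 0.07 for all genes tested. The HFD WT count depended on the libraries in the fit. It was 3 (Abcd2, Acaa1b and Scp2) with the 2 HFD WT groups fitted alone, 12 without HFD WT tumour replicate 5, 13 without HFD WT non-tumour replicate 3 and 27 without HFD WT tumour replicate 4. The 15.3% of all genes called belongs to the fit with all libraries, and the shares in these other fits are not reported here.

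Called lower in each of the 4 comparisons were 22 members, beside 6.29% of all genes. They were Cpt2 and Slc25a20 of the shuttle, Acadvl, Acadm, Acads, Hadha, Hadh, Acaa2, Eci1, Eci2 and Decr1 of the mitochondrion, Etfa and Etfdh, every peroxisomal gene that fell in the average except Ehhadh, and Acot1. Ehhadh was called in 3 of them and differed by -1.10 in HFD WT. Abcd2 was called higher in each of the 4 (5.03% of all genes), by 3.10 in alcohol IL17RA-/-, 2.74 in alcohol WT, 2.47 in HFD IL17RA-/- and 1.74 in HFD WT. Not called in any of the 4 were 8 members, namely Acadl, Acot2, Cpt1a, Etfb, Fgf21, Pdk4, Ppargc1a and Vnn1.

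The size of the falls varied with the group. Scp2 differed by -1.84, -2.23, -2.23 and -1.74 in alcohol IL17RA-/-, alcohol WT, HFD IL17RA-/- and HFD WT. Acaa1b differed by -2.07, -2.97, -3.06 and -2.09 in that order, and Acot1 by -1.55, -2.85, -2.98 and -1.67. Acot3 differed by -2.85 in alcohol WT and -2.75 in HFD IL17RA-/-, and its difference of -2.37 in HFD WT was not called (limma adjusted p = 0.0601). In alcohol WT, tumour replicates 4 and 5 lay under the 3-count limit for Acot3. Bdh1 was called higher in alcohol IL17RA-/- by 0.78 and in no other of the 4. No member passed the test of whether the tissue difference changed with the genotype label or with diet, as given below. Each of those tests averages over the other factor, so opposite changes can cancel in it. Whether the change with the genotype label differed between the diets was not tested.

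Genes of the same pathways outside the 39 also were lower in tumours for the most part. Of 50 other oxidation genes tested, 40 were lower and 4 higher, with a median of -0.91. Nudt7, a peroxisomal CoA hydrolase, ranged from 16.1 to 103 CPM with a median of 30.0 CPM in tumours, and from 131 to 668 CPM with a median of 338 CPM in non-tumour liver, a difference of -3.23. Hacl1, the lyase of alpha-oxidation, differed by -2.69. Acsl4 and Acsl5, 2 long-chain acyl-CoA synthetases, were higher by 1.41 and 1.08, with no overlap between 247.6 to 457 CPM in tumours and 83.8 to 161 CPM in non-tumour liver for Acsl4.

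Of 32 other PPARA targets and partners tested, 18 were lower and 6 higher, with a median of -0.54. The omega-hydroxylases Cyp4a14 and Cyp4a12a had the largest falls, -4.26 and -3.95, and their neighbour Cyp4a31 the largest rise, 3.42. Cyp4a14 ranged from 1.64 to 71.9 CPM with a median of 6.11 CPM in tumours, and from 6.42 to 549 CPM with a median of 218 CPM in non-tumour liver. Cyp4a31 ranged from 16.6 to 57.1 CPM in tumours and from 0.546 to 8.07 CPM in non-tumour liver. These Cyp4a genes are near copies of each other, so the split of their reads is uncertain.

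Marker lists for the tissues' other cells and states are given beside the 63.6% of all genes called (27% lower, 36.6% higher). Of 8 cell cycle markers 8 were called higher in tumours (sum 48.0 to 387 CPM in tumours, 11.9 to 161.5 CPM in non-tumour liver), as were 7 of 7 liver tumour markers and 6 of 7 cholangiocyte markers (135.5 to 1785 CPM against 50.2 to 165 CPM). Of 8 Kupffer cell markers 7 were called lower (138 to 537 CPM in tumours, 218 to 1696 CPM in non-tumour liver). Of 9 hepatocyte markers 5 were called higher and 2 lower. Of 10 fasting and feeding genes 7 were lower and 1, Igfbp1, was higher by 2.93 (6232 to 13990 CPM in tumours, 13370 to 42720 CPM in non-tumour liver). Of 11 clock genes 3 were higher and 2 lower. Of 8 stellate cell markers 4 were higher and 3 lower (429.6 to 1694 CPM in tumours, 382 to 1206 CPM in non-tumour liver), of 8 endothelial markers 1 was lower (264 to 561 CPM in tumours, 359.6 to 596 CPM in non-tumour liver), and of 6 T and B cell markers 1 was higher (2.98 to 35.7 CPM in tumours, 1.92 to 14.7 CPM in non-tumour liver). Of 5 adipocyte markers only Cfd passed the expression filter, and it was called lower at -3.51 (sum 0 to 1.51 CPM in tumours, 0.14 to 111.5 CPM in non-tumour liver), with Lep at 0 in all 29 libraries. Of 8 oxidation markers of other tissues 3 passed it and 2, Acot7 and Acot11, were called lower, with sums that did not overlap (13.98 to 20.2 CPM in tumours, 21.4 to 50.35 CPM in non-tumour liver) and Myh6 at 0 in every tumour. The part of these in the tissue difference was not tested.

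One tumour library stood apart. The mean log2(CPM + 1) over the 39 genes was 7.27 in HFD WT tumour replicate 4, 6.18 to 6.58 in the other 12 tumours, and 6.83 to 7.78 in non-tumour liver. This library was the highest tumour for 30 of the 39 genes. Its liver tumour marker sum of 306.5 CPM and hepatocyte marker sum of 107500 CPM were the lowest of the tumours. With all libraries 8 members had every tumour below every non-tumour library (3.3% of all genes), 1 had every tumour above (2.84%), and 30 overlapped. The 8 were Cpt2, Acaa2, Acaa1a, Hsd17b4, Scp2, Abcd3, Crot and Acot1. Without that library 24 members lay wholly below, 7.3% of all genes, and 1 above, 4.17%. The HFD WT tissue difference had a median of -1.06 over the members without it.

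**Figure D4:**
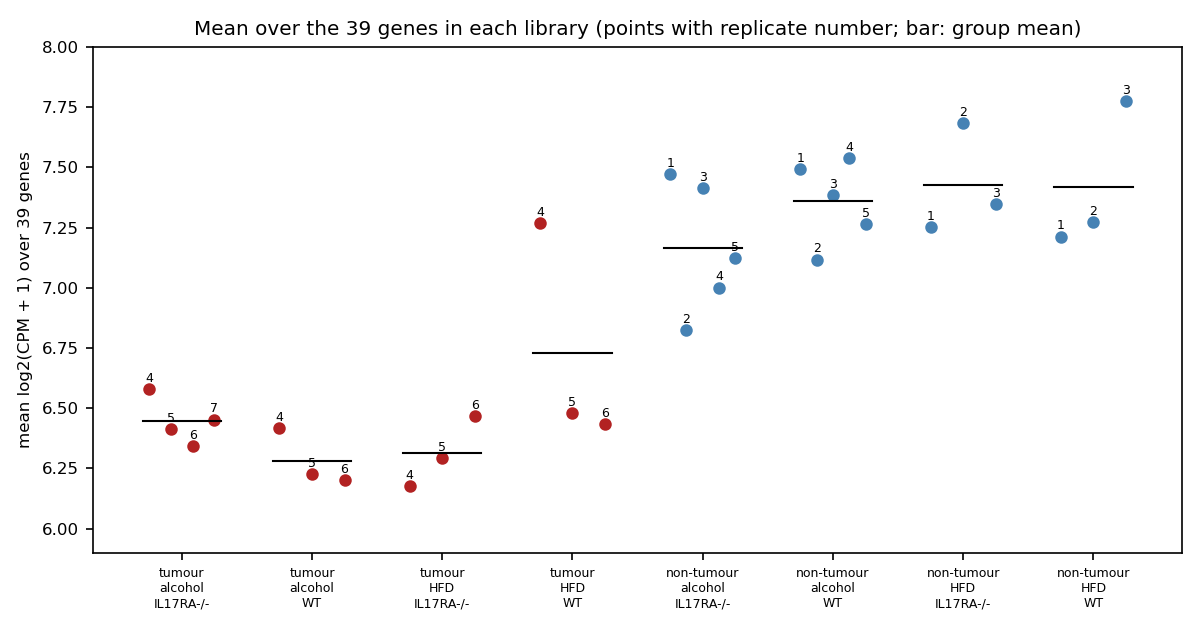
Mean log2(CPM + 1) over the 39 genes in each library, by group, with tumour groups left of non-tumour groups and a short line at each group's mean. The 12 other tumours lie between 6.18 and 6.58 and HFD WT tumour replicate 4 at 7.27, inside the non-tumour range of 6.83 to 7.78.

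Among non-tumour livers, alcohol IL17RA-/- replicate 2 was the lowest for 16 members, and its mean of 6.83 was the lowest of the 16. It and replicate 4 of the same group (mean 7.001) had Kupffer marker sums of 221 and 218 CPM, where the other non-tumour libraries had 637 to 1696 CPM. HFD WT replicate 3 was the highest non-tumour library for 17 members and HFD IL17RA-/- replicate 2 for 13. Within groups of non-tumour liver the spread was widest for Acot3 (SD 1.36 on the log2 scale), Abcd2 (0.87), Acot2 (0.86), Pdk4 (0.81), Fgf21 (0.765) and Vnn1 (0.763) and narrowest for Hadha and Acadvl (0.12 each). The median over the members was 0.24, beside 0.26 over all genes tested.

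Between libraries labelled IL17RA-/- and WT libraries no member was called in any of the 4 comparisons, with limma on CPM or with limma-voom on the recovered counts. Of all genes 0% were called in non-tumour alcohol, non-tumour HFD and tumour alcohol, and 1.61% in tumour HFD (1% lower, 0.603% higher). At an unadjusted p under 0.05 stood 3, 0, 0 and 19 members in that order by limma, and 3, 0, 0 and 18 by limma-voom. Of all genes tested, 330 of 12829, 461 of 12829, 261 of 13269 and 2986 of 13269 stood under that p by limma. The members' median differences were -0.14, 0.05, 0.17 and -0.51, beside 0.01, -0.12, 0.09 and -0.09 for all genes tested.

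Non-tumour alcohol liver had the widest genotype gap in Vnn1. Its levels were 79.2, 15.3, 129.9, 43.3 and 84.7 CPM in IL17RA-/- replicates 1 to 5, against 183, 93.7, 105, 179.5 and 96.4 CPM in WT replicates 1 to 5. Of the IL17RA-/- libraries 4 lay below every WT library, and the difference was -1.13 ± 0.43 (limma unadjusted p = 0.0179, adjusted p = 1). Without replicates 2 and 4 the difference was -0.39. These are the libraries with the low Kupffer sums, but the fit left them out as libraries marked high in cholesterol, a trait not reported here. Acot3 and Acot1 differed by -0.87 and -0.75 with all libraries, and by 0.26 and -0.76 without those 2. Acaa1b differed by -0.53, and by -0.17 without them. Ppara differed by 0.07 and Cpt1a by -0.04. The members' median without both libraries was -0.03. Of 8 Kupffer markers, 8 had a negative difference here, none called, with a median of -0.64.

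In non-tumour HFD liver Ppara had 237, 261 and 249.4 CPM in IL17RA-/- replicates 1 to 3, against 135, 182 and 300.1 CPM in WT replicates 1 to 3. The 3 IL17RA-/- values fell inside the WT range, at a difference of 0.35 ± 0.25 (limma adjusted p = 0.9). Acot2, Acot3 and Ppargc1a differed by -0.60, -0.55 and 0.37, and Cpt1a by 0.08. In alcohol tumours Ppara had 195, 136.5, 179.5 and 134 CPM in IL17RA-/- replicates 4 to 7, against 209, 85.5 and 93.3 CPM in WT replicates 4 to 6. The WT values spanned those of IL17RA-/-, at 0.42 ± 0.27 (limma adjusted p = 1). Acot1, Ppargc1a and Eci2 differed by 0.56, 0.54 and 0.41, and Cpt1a by 0.04.

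In HFD tumours 31 of 39 members had a negative difference of IL17RA-/- from WT, none called, and 18 of the 19 members with an unadjusted p under 0.05 were on that side. The median of all genes tested was negative here too, as given above. The share of all genes on that side is not reported here. The lowest adjusted p was that of Ppargc1a, which lay on the other side. It had 7.62, 20.65 and 10.01 CPM in IL17RA-/- replicates 4 to 6, against 6.73, 3.63 and 4.14 CPM in WT replicates 4 to 6. Every IL17RA-/- tumour lay above every WT tumour, at 1.16 ± 0.36 (limma adjusted p = 0.0934). Acot1 had 2.85, 2.81 and 3.23 CPM in IL17RA-/-, against 15.8, 3.49 and 9.81 CPM in WT, all WT tumours above, at -1.24 ± 0.47 (limma adjusted p = 0.144). Fgf21 and Pdk4 differed by -1.30 and -1.07, and Ppara and Cpt1a by 0.29 and 0.13.

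This comparison turned on single WT tumours. Without HFD WT replicate 4 the members' median was -0.22 instead of -0.51, and Ehhadh differed by -0.18 instead of -0.95. Without HFD WT replicate 5, 8 members were called lower: Hsd17b4 (-0.81), Acot1 (-1.77), Acadvl (-0.73), Decr1 (-1.09), Acadm (-0.83), Slc25a20 (-0.73), Etfdh (-0.93) and Cpt2 (-0.78). The share of all genes called in that fit is not reported here, and the 1.61% above belongs to the fit with all libraries. The hepatocyte markers had a median of 0.48 in this comparison, with all libraries, and the Kupffer markers -0.34, none called. The cholangiocyte marker sum was 276.5, 357.5 and 300.5 CPM in IL17RA-/- replicates 4 to 6, against 1743, 1785 and 391 CPM in WT replicates 4 to 6, with no overlap. Their part in the result was not tested.

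**Figure D5:**
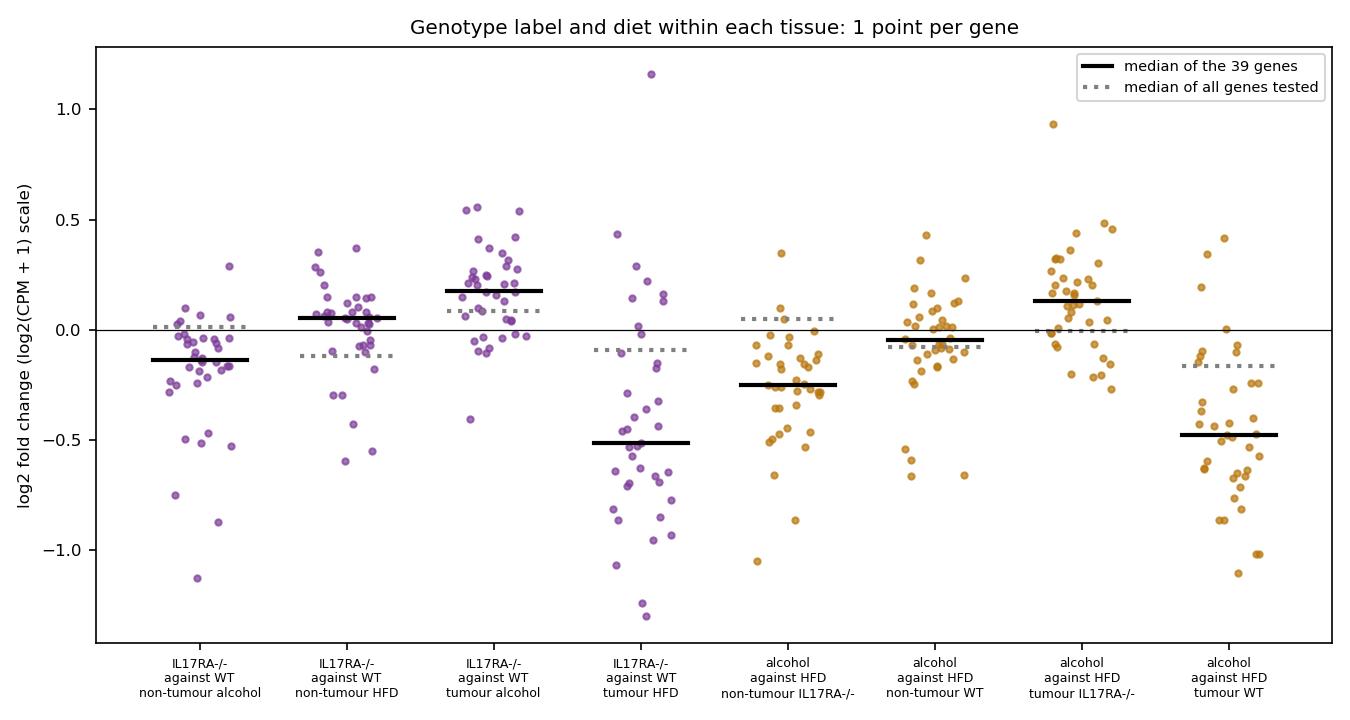
Difference on the log2(CPM + 1) scale for each of the 39 genes (points) in the 4 comparisons of IL17RA-/- with WT and the 4 of alcohol with HFD, with a solid line at their median and a dotted line at the median of all genes tested. Their medians lie between -0.51 in HFD tumours by genotype label and 0.17 in alcohol tumours by genotype label, and no gene was called in any of the 8.

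Between alcohol and HFD no member was called in any of the 4 comparisons, with limma or limma-voom. Of all genes 0% were called in the 2 non-tumour comparisons and in IL17RA-/- tumours, and 0.00754% in WT tumours. At an unadjusted p under 0.05 stood 3 members in non-tumour IL17RA-/-, 0 in non-tumour WT, 1 in IL17RA-/- tumours and 14 in WT tumours, the same numbers by limma-voom. Of all genes tested, 745 of 12829, 541 of 12829, 293 of 13269 and 2126 of 13269 stood under that p by limma, in that order. The median differences were -0.25, -0.04, 0.13 and -0.48, beside 0.05, -0.08, 0.00 and -0.17 for all genes tested.

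In non-tumour IL17RA-/- liver Vnn1 had 79.2, 15.3, 129.9, 43.3 and 84.7 CPM on alcohol, against 76.6, 167 and 130.8 CPM on HFD. The 2 lowest alcohol values were those of replicates 2 and 4, and the difference was -1.05 ± 0.49 (limma adjusted p = 0.859), or -0.31 without these 2. The members' median was -0.10 without them. Acot3, Acaa1b and Pdk4 differed by -0.86, -0.66 and -0.53 with all libraries, Ppara by -0.12 and Cpt1a by -0.26. Cpt1a had 795, 443, 647, 459 and 608 CPM on alcohol, against 670.5, 702 and 696 CPM on HFD, with the HFD values inside the alcohol range. In non-tumour WT liver Fgf21 and Abcd2 differed by -0.66 each, Acot2 by -0.59 and Acot3 by -0.54. Ppara and Cpt1a differed there by 0.17 and -0.14. The members' median in that comparison was 0.04 after median-ratio rescaling, so its direction depended on the scaling.

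In WT tumours 35 of 39 members had a negative difference of alcohol from HFD, none called. The median of all genes tested was also negative, as given above, and the share of all genes on that side is not reported here. Ehhadh had 111, 86.3 and 86.7 CPM on alcohol, against 591, 141.5 and 99.3 CPM on HFD, in replicates 4 to 6 of each. Of the HFD tumours, replicates 4 and 5 lay above every alcohol tumour, and the difference was -1.10 ± 0.49 (limma adjusted p = 0.295). Without HFD WT replicate 4 it was -0.33, and the members' median was -0.23 instead of -0.48. Fgf21, Acot1 and Acaa1b differed by -1.02, -0.86 and -0.86, Ppara by -0.40 and Cpt1a by -0.07. The cholangiocyte marker sum was 167 to 612.5 CPM on alcohol, against 391 to 1785 CPM on HFD, and its part in the result was not tested. Median-ratio rescaling moved the median of all genes in this comparison to -0.01 and that of the members to -0.31.

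IL17RA-/- tumours on alcohol had Acot1 at 3.01, 10.1, 7.02 and 8.09 CPM, against 2.85, 2.81 and 3.23 CPM on HFD. Of the alcohol tumours, 3 lay above every HFD tumour, at 0.93 ± 0.44 (limma adjusted p = 1). Scp2 had 1448, 1419, 1284 and 1595 CPM on alcohol, against 991, 1149 and 1033 CPM on HFD, with no overlap, at 0.44 ± 0.19 (limma adjusted p = 1). Fgf21 and Crot differed by 0.48 and 0.36, Ppara by -0.27 and Cpt1a by -0.16.

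Tests of whether one difference changed with another factor called no member and 0% of all genes. The change of the tissue difference with the genotype label (IL17RA-/- minus WT) was widest for Abcd2, 0.54, Pdk4, -0.53, and Ppargc1a, 0.52, with 0 members at an unadjusted p under 0.05. Its change with diet (alcohol minus HFD) was widest for Abcd2, 0.82, again with 0 members. The change with the genotype label was averaged over diets and that with diet over genotype labels, so opposite changes can cancel. The change of the diet difference with the genotype label had 1 member under that p in non-tumour liver and 12 in tumours by limma, and 1 and 11 by limma-voom. Of all genes tested, 529 of 12829 in non-tumour liver and 1757 of 13269 in tumours stood under that p by limma. In tumours 35 members were positive, with a median of 0.59 beside 0.17 for all genes, and Acot1 (1.79), Fgf21 (1.501), Acot3 (1.48), Ehhadh (1.27) and Acaa1b (1.18) were the widest. The share of all genes that were positive is not reported here. The lowest limma adjusted p, 0.297 for Hsd17b4 at 0.90 ± 0.27, missed the threshold. Without HFD WT tumour replicate 4 that median was 0.32.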

How the data were processed

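Polyadenylated, strand-specific libraries were made from liver RNA, per the labels' protocols. The submitters' processing notes name STAR 2.5.1a, RSEM 1.3.0 and build GRCm38; the sources used here give neither the annotation nor any filter. One table of CPM was deposited by the authors, for 22187 gene IDs. Each library's values were multiples of a step standing for 1 count, 83.4% to 86.2% of nonzero values being whole within 0.002 counts and the others whole hundredths, the form in which RSEM writes expected counts. Symbols were found for 21653 IDs; the other 534 held 0.138% of counts.

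Groups came from the sample titles. Fits of log2(CPM + 1), a scale that understates changes of low genes, were made with limma 3.58.1 under R 4.3.3; a gene entered when 3 or more fitted libraries held at least 1 CPM. Tissue comparisons and their average were fitted on all 29 libraries, those within non-tumour liver on 16 and within tumours on 13. Calls are two-sided, at a Benjamini-Hochberg adjusted p under 0.05 over all genes tested. The scripts were tested on simulated data. The 3-count limit covers counting error only.

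The 39 members, the lists and the tests were chosen with earlier results of these data known. Named were Ppara and Cpt1a throughout, every called member of the tissue average (the 12 largest changes in full), up to 10 called members elsewhere and, where none was called, up to 4 with the largest difference, if the higher group averaged at least 5 CPM. Members described for a library that moved them were chosen after their values were seen. Some genes of the wider lists are not reported here.

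Results were recomputed with no filter, with a pseudocount of 0.1, with median-ratio rescaling, with the compared groups alone, with a replicate block, without each library in turn, without libraries that looked apart, and by limma-voom on the recovered counts. Replicate numbers were checked as pairs by the correlation of same-numbered libraries' residuals. They were 0.338, 0.268 and 0.134 between alcohol and HFD in WT non-tumour liver, for replicates 1 to 3. The same-numbered libraries there were each other's best match for replicate 1, but not for replicates 2 and 3. The numbers may pair these libraries, though the labels state no pairing, and the block fit called 0 members there. Between genotype labels in non-tumour alcohol liver the correlations ran from -0.16 to 0.409.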

Additional observations from a re-analysis of the deposited data

Results flagged for a closer look

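Of 117 groups of 4 or 5 libraries examined, 4 held a library apart from the others by Dixon's criterion, where chance gives about 1 in 20, or 5.85. Acadl was 110.1 CPM in non-tumour alcohol WT replicate 2, against 152 to 168 CPM in the other 4 libraries of that group. Hadh was 174 CPM in tumour alcohol IL17RA-/- replicate 4, against 129.9 to 137 CPM in the other 3. It was 398 CPM in non-tumour alcohol WT replicate 3, against 301 to 319.7 CPM in the other 4. Acot4 was 12.3 CPM in tumour alcohol IL17RA-/- replicate 6, against 19.7 to 20.3 CPM in the other 3.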

How the results depend on the processing

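Over the alternatives, 628 of 634 counts and medians of members stayed within 1.5 times (counts) or 1 SD (medians), and 6 moved. Counts of 0 that stayed at 0 are among those kept. So is the median for IL17RA-/- against WT in HFD tumours, which went from -0.51 to -0.22 without HFD WT tumour replicate 4. Some medians near 0 within a tissue changed sign inside that SD. The 34 genes called in the tissue average kept call and direction in all 272 values counted under the alternatives. Of the fits with 1 library left out, these values hold only each gene's lowest and highest difference. Vnn1, not called with all libraries, was called lower without non-tumour alcohol IL17RA-/- replicate 2 (-0.45) and without replicates 2 and 4 (-0.52, limma adjusted p = 0.00441). The tissue average called 34 to 35 members under every alternative and with any 1 library left out. For HFD WT tumours against non-tumour liver the count was 23 with all libraries, 3 with the compared groups alone, and 12 to 27 with 1 library left out, and the median of -0.74 became -1.15 without the 4 libraries that looked apart (HFD WT tumour replicate 4, alcohol IL17RA-/- tumour replicate 5, HFD IL17RA-/- non-tumour replicate 3 and HFD WT non-tumour replicate 1). For IL17RA-/- against WT in HFD tumours the count was 0 to 8 with 1 library left out. Shares of all genes called with libraries left out, with the compared groups alone or with a replicate block are not reported here. For the change of the diet difference with the genotype label in tumours the median was 0.32 to 0.73 with 1 library left out. The cause was not tested, beyond the fewer samples in those fits. With a replicate block and the compared groups alone, 22 members were called between tissues in alcohol IL17RA-/- and 25 in alcohol WT. The fits of all 29 libraries without a block called 28 and 29. They differ in the libraries fitted as well as in the block, so the drop cannot be credited to the block alone. With the block, 0 members were called in each comparison of genotype label or diet, as without it. No paired analysis was possible for HFD tissues, the average and the interactions because those groups share no replicate numbers across tissues or the result spans 4 groups. Depth limits Acot3 in tumours, where 2 libraries lay at or under 3 counts. They were alcohol WT replicate 4, listed at 0, and alcohol WT replicate 5, at 0.309 CPM.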
